A study of Mus musculus with 13 samples.

Results

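The transcripts of 45 genes that build and run the mitotic spindle and the kinetochore were measured in brain-resident myeloid cells of PS2APP mice with and without Trem2. The genes were taken by symbol from a list of proteins that act at mitotic entry, at the centromere and kinetochore, in the spindle checkpoint, in the chromosomal passenger complex, on the spindle and at the midzone, together with Top2a and Mki67. All 45 were found once each among the 52636 genes listed, and all 45 were among the 17086 genes with enough counts to be tested. Abundance per length is given as nRPKM, the read count scaled to gene length and library size (RPKM) and adjusted by a size factor by the authors.

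RNA-Seq data came from 7 PS2APP;Trem2wt mice (5 females, 2 males) and 6 PS2APP;Trem2ko mice (5 females, 1 male) at 14 to 15 months of age, each mouse giving 1 sample. By the study's methods, mice were generally handled from perfusion to sorting in pairs of 1 mouse per genotype, but the labels do not say which mice formed a pair. Every mouse of both groups carried the human presenilin 2 and amyloid precursor protein transgenes of the PS2APP model, which develops β-amyloid plaques, and the Trem2ko mice also carried a germline Trem2-null allele, so that Trem2 was absent from all of their cells. No mouse without the transgenes was among the samples, so the comparison is of genotypes within plaque-bearing brains. Cells of cortex and hippocampus were sorted by FACS as CD11b+ CD45+ Ly6g- Ccr2-, a gate meant to hold microglia and other resident macrophages and to leave out neutrophils and monocytes.

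Mitosis begins when the kinase Cdk1, bound to a B-type cyclin, is switched on. Microtubules then form a bipolar spindle, kinetochores built on the centromeres attach the chromosomes to it, a checkpoint delays chromosome separation until every kinetochore is attached, and a midzone left between the separated chromosomes places the cleavage furrow. Most of these genes are transcribed late in the cell cycle and are close to silent in resting cells, and microglia, which rest for most of their lives, divide around β-amyloid plaques.

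Trem2 had a lowest, median and highest nRPKM of 818, 1016 and 1244 in PS2APP;Trem2wt mice and of 0.393, 0.629 and 2.29 in PS2APP;Trem2ko mice, so each mouse matched its genotype label. Total counts per mouse were between 26120961 and 120569609, with a median of 35201380 in PS2APP;Trem2wt and 55371726 in PS2APP;Trem2ko mice. Microglial markers summed to 54665 to 62856 CPM (counts scaled to library size) in PS2APP;Trem2wt and 53109 to 60310 CPM in PS2APP;Trem2ko mice, and 1 of the 8, Cx3cr1, was lower. Markers of neutrophils and their precursors summed to 22.8 to 376 CPM against 0.137 to 75.6 CPM, with 5 of the 9 tested, none of these called, and with Ly6g, Retnlg, Elane and Mpo at a median of 3 counts or fewer. Lymphocyte, erythroid and oligodendrocyte precursor markers reached at most 8.42, 6.11 and 5.85 CPM in any mouse. Other lists were present at more: astrocyte markers at 366 to 469 against 418 to 532 CPM (PS2APP;Trem2wt against PS2APP;Trem2ko), oligodendrocyte markers at 316 to 437 against 285 to 412, border macrophage markers at 44.8 to 148 against 88.3 to 220 and endothelial markers at 53.7 to 122 against 42.8 to 65.3. Monocyte markers were at 11.3 to 62.2 against 17.1 to 84.0 CPM, and neuron markers at 13.1 to 42.8 against 14.3 to 46.2. Pericyte and fibroblast markers were at 1.93 to 14.4 against 3.01 to 11.7 CPM. Of these lists 1 gene was called, endothelial Flt1, which was lower, and the part of such cells in the results was not tested. Mouse PS2APP;Trem2ko 4 was the lowest of the 13 mice in 23 of the 45 genes described here, and counts and medians are therefore also given without it.

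The DNA around the starts of these genes shares short words that the choice of genes did not use. The CHR, a word near the start of many late-cell-cycle genes, is bound by the MuvB complexes that keep such genes off in resting cells and, with B-Myb and Foxm1, switch them on before mitosis. The CCAAT box is bound by the factor NF-Y. RefSeq promoter windows (GRCm38.p6, 250 bases before to 50 bases after a start) were held for 40 of the 45 genes, and were searched for TTTGAA and TTCGAA as the CHR and for CCAAT, each on both strands, where a CHR word and a CCAAT box can share at most 1 base. CHR letters were in the windows of 33 of the 40 genes (82.5%), against 21.7% of all 27025 genes with a window. CCAAT letters were in 29 (72.5%) against 41.1%, and both were in 26 (65.0%) against 9.65%. Within 50 bases of the start, a distance chosen after the positions were seen, CHR letters were found for 31 of the 40 (77.5%) and for 6.12% of all genes. They lay after the start in 24 of these 31 and before it in 9, with 2 genes having both. Over the whole windows 64 of 69 CCAAT words lay before the start, but the windows hold 250 bases before it and 50 after. The sides of the 2 words can therefore not be compared. A gene with more than 1 start has its CCAAT words counted in each window. Sides are given by the RefSeq start. For Cdk1 this start lies 26 bases downstream of the GENCODE start, so the CHR letters nearest to it lie after the GENCODE start. The stretches next to 4 starts are shown because they carry both words beside 2 of the genes with the lowest relative abundance in PS2APP;Trem2ko mice, Gas2l3 and Aspm, and beside 2 standard markers of dividing cells, Cdk1 and Top2a. Capitals mark the searched words, ATTGG being CCAAT and TTCAAA being TTTGAA on the other strand. Each is printed 5′ to 3′ on the strand of its gene, in the order Gas2l3 (chr10:89443968-89444087, minus strand), Aspm (chr1:139454653-139454784, plus strand), Cdk1 (chr10:69352913-69353032, minus strand) and Top2a (chr11:99024190-99024309, minus strand).
Gas2l3: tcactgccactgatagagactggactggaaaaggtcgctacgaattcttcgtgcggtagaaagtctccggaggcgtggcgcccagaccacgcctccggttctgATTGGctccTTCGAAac
Aspm: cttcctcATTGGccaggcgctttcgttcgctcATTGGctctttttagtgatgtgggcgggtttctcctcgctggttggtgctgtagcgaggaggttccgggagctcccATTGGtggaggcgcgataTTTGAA
Cdk1: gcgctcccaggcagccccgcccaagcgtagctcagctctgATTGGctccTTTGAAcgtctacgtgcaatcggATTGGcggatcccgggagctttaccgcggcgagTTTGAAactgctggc
Top2a: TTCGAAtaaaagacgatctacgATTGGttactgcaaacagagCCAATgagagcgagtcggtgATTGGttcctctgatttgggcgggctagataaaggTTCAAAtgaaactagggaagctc

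The Gas2l3 stretch ends at its start and holds a CCAAT box 4 bases before a CHR, a spacing also seen for the first such pair of Cdk1. The Aspm stretch runs 12 bases past the start to include its CHR. No CHR letters were found in the windows of Ccnb1, Nuf2, Cenpe, Sgo2a, Birc5, Nusap1 and Cit, which says only that these letters are not in those windows. The windows of 61 other dividing-cell genes held CHR letters in 62.3% and CCAAT letters in 67.2%, and those of 42 genes for spindle parts that resting cells also make held them in 19.0% and 45.2%. The words are a description of the sequence, and no binding was measured in these cells.

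**Figure D1:**
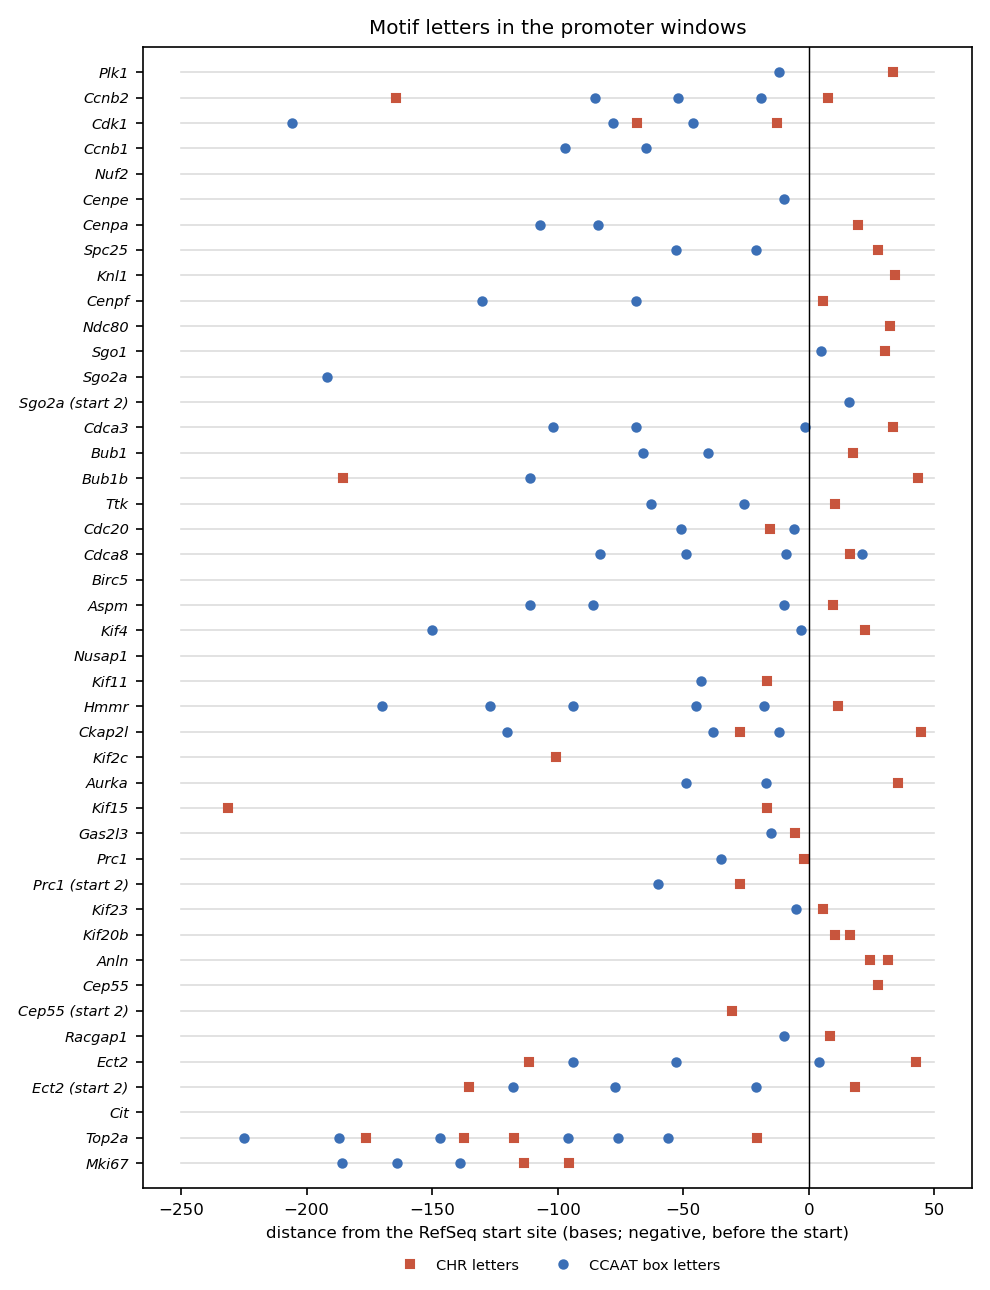
Positions of CHR letters (squares) and CCAAT letters (circles) in the RefSeq promoter windows of 40 mitotic spindle and kinetochore genes, in bases from the start site; genes with more than 1 start have a row for each. Most CHR letters lie within 50 bases of the start, more often after it than before, and CCAAT letters mostly lie before it.

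Messages of the 45 genes were scarce in the sorted cells. Mean abundance over the 13 mice was between 0.124 nRPKM for Aspm, which was followed by Ccnb1 and Kif4 among the lowest, and 2.96 nRPKM for Incenp, which was followed by Ccnb2 and Gas2l3 among the highest, with a median over the genes of 0.695 nRPKM. Even so, none of the 585 values was at 3 counts or fewer. A gene had between 6 and 2670 counts in a mouse, with a median of 166.

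In PS2APP;Trem2ko compared with PS2APP;Trem2wt mice, 44 of the 45 log2 fold changes were negative (49.3% over all genes tested), with a median of -0.55, or 68.4% of the PS2APP;Trem2wt level, beside a median of 0.00 over all genes tested. By the edgeR quasi-likelihood test with Benjamini-Hochberg adjustment over all genes tested, 4 were lower with adjusted p-values up to 0.05, Gas2l3, Cenpa, Foxm1 and Aspm, where 1.53% of all genes tested were lower. None was higher (0.503% of all genes), and at an unadjusted p of 0.05 or less 20 had a negative (7.56% of all genes) and 0 a positive fold change (7.29%). The count of lower genes was 5 with voom+limma and 6 with DESeq2, which called 1.9% and 3.08% of all genes lower. Neither called any of the 45 higher, and the share of all genes called higher was not taken for them. The count of lower genes was 1 with no filter on low counts, where Gas2l3 alone was called and 0.641% of all genes were lower. In females alone it was 2, Gas2l3 and Cenpa, where 1.03% were. Gas2l3 and Aspm also passed a 2-fold cutoff (0.691% of all genes), and in 3 genes, Gas2l3, Cenpa and Foxm1, all PS2APP;Trem2ko mice lay under the PS2APP;Trem2wt range (1.22% of all genes). In females alone 6 genes were without overlap (2.44% of all genes). In RNA from bulk sorted cells, fewer dividing cells and less message per dividing cell cannot be told apart.

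How many of the 4 calls were kept depended on single mice. With 1 mouse left out at a time Gas2l3 and Cenpa were called in all 13 fits and Foxm1 and Aspm in 4 and 2, so that 2 genes were lower without PS2APP;Trem2ko 1, 5 or 6 or PS2APP;Trem2wt 2, 3, 4 or 5, and 3 without PS2APP;Trem2ko 3 or 4 or PS2APP;Trem2wt 1 (Foxm1 the third), PS2APP;Trem2wt 6 (Aspm) or PS2APP;Trem2wt 7 (Tpx2). Without PS2APP;Trem2ko 2 the count was 6, with Tpx2 and Kif20b added. The share of all genes called lower was not taken in these fits, so how far the changes in count are particular to the 45 genes is not known. Without PS2APP;Trem2ko 4 the median log2 fold change was -0.47 and 42 of the 45 were negative.

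**Figure D2:**
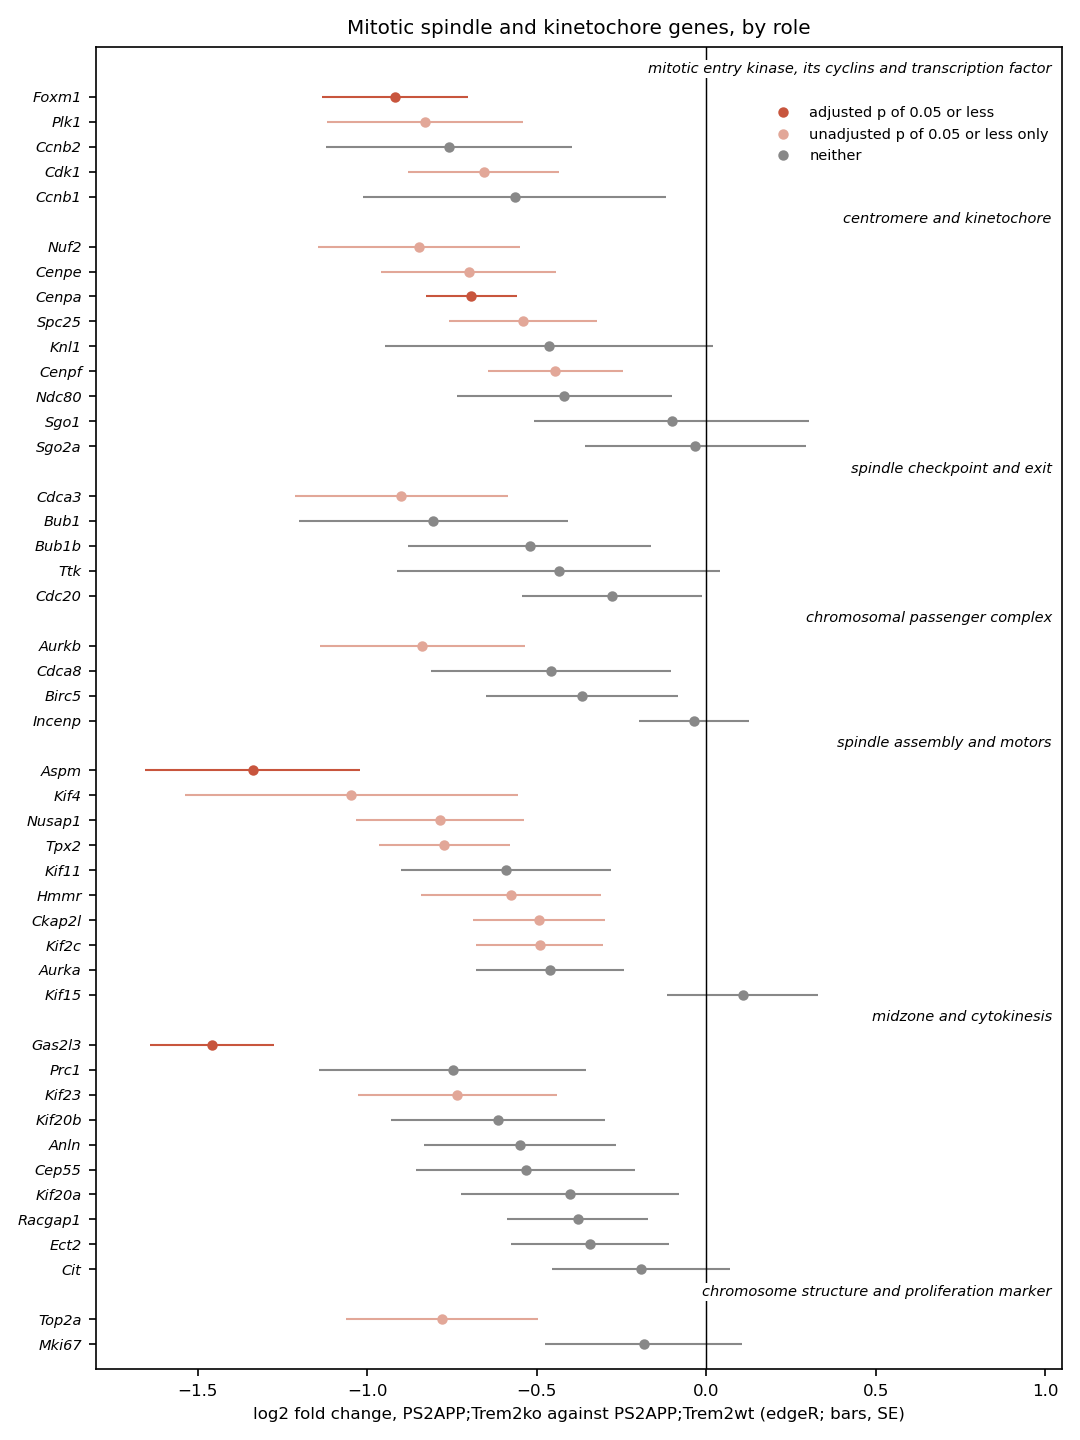
Log2 fold change of each of the 45 genes in PS2APP;Trem2ko (n = 6) against PS2APP;Trem2wt (n = 7) mice from edgeR, with bars of 1 SE, in groups by role and in order within each group. All but Kif15 lie left of 0, the bars of several reach 0, and 4 genes have an adjusted p of 0.05 or less.

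Among the genes of mitotic entry, Foxm1, a transcription factor for late-cell-cycle genes, was lower in PS2APP;Trem2ko mice. Foxm1 (ENSMUSG00000001517, chr6:128362967-128376146) had a lowest, median and highest nRPKM of 0.743, 0.828 and 1.06 in PS2APP;Trem2wt mice (mean 0.888 ± 0.131, SD, n = 7) and of 0.226, 0.540 and 0.603 in PS2APP;Trem2ko mice (mean 0.471 ± 0.160, SD, n = 6). No mouse of one genotype overlapped the other, and mice 3 and 5 of PS2APP;Trem2ko were the lowest. By edgeR the log2 fold change came to -0.92 (SE 0.22, adjusted p = 0.0377), and the adjusted p was above 0.05, and at most 0.0741, without any 1 of PS2APP;Trem2wt 2 to 7 or PS2APP;Trem2ko 1, 5 or 6. It was also above the threshold with no filter (0.0526), in thinned counts (0.0554) and in females alone (0.136).

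Cdk1, the kinase that starts mitosis, ran from 1.06 to 2.14 nRPKM (median 1.36) in PS2APP;Trem2wt and from 0.506 to 1.5 (median 0.955) in PS2APP;Trem2ko mice. Plk1, a kinase of entry, centrosomes and kinetochores, ran from 0.673 to 1.5 (median 1.08) and from 0.292 to 1.03 nRPKM (median 0.659). Of the 6 PS2APP;Trem2ko mice, 5 lay under the PS2APP;Trem2wt range for Cdk1 and 3 for Plk1, with mouse PS2APP;Trem2ko 1 within the PS2APP;Trem2wt range for both. Neither passed the test over all genes: the log2 fold change from edgeR was -0.66 (SE 0.22, adjusted p = 0.164) for Cdk1 and -0.83 (SE 0.29, adjusted p = 0.175) for Plk1. Of the 50-base words of Plk1 transcripts, each the length of a read, 10.4% also occur in transcripts of other genes. Most often the other gene is its pseudogene Plk-ps1, so Plk1 counts are less certain. With sex as a covariate, Cdk1 had an adjusted p of 0.0348.

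The B-type cyclins, the partners of Cdk1, were far apart in level, and neither passed the test over all genes. Ccnb2 was at 1.64 to 3.26 nRPKM (median 2.57) against 0.377 to 2.59 (median 1.40), with PS2APP;Trem2ko 4, 5 and 6 under the PS2APP;Trem2wt range. Ccnb1 was at 0.0626 to 0.487 nRPKM (median 0.147) against 0.0623 to 0.195 (median 0.142), and the genotypes overlapped almost fully. The fold changes from edgeR were -0.76 (SE 0.36, adjusted p = 0.346) for Ccnb2 and -0.57 (SE 0.45, adjusted p = 0.605) for Ccnb1. Of the 50-base words of Ccnb1 transcripts, 23.4% also occur in other genes, most often its pseudogene Ccnb1-ps, so Ccnb1 counts are uncertain. The median log2 fold change of the 5 entry genes was -0.76.

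At the centromere and kinetochore, Cenpa, the histone variant that marks the centromere, was lower in PS2APP;Trem2ko mice. Cenpa (ENSMUSG00000029177, chr5:30666777-30674830) had a lowest, median and highest nRPKM of 1.49, 1.74 and 1.91 in PS2APP;Trem2wt (mean 1.73 ± 0.148, SD, n = 7) and of 0.858, 1.09 and 1.30 in PS2APP;Trem2ko mice (mean 1.07 ± 0.151, SD, n = 6). The genotypes did not overlap, and its SE was the smallest of the 45 genes. By edgeR the log2 fold change came to -0.69 (SE 0.13, adjusted p = 0.0127), or 61.9% of the PS2APP;Trem2wt level. It was called whichever mouse was left out, with an adjusted p of at most 0.0326, and was missed only with no filter on low counts (adjusted p = 0.0544).

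The outer kinetochore genes that grip microtubules were less uniform. Nuf2, a subunit of the Ndc80 complex, was at 0.588 to 1.31 nRPKM (median 0.798) against 0.209 to 0.818 (median 0.528), and Cenpe, a kinesin that carries chromosomes to the spindle equator, was at 0.298 to 0.574 (median 0.402) against 0.119 to 0.385 (median 0.269). In 3 of 6 PS2APP;Trem2ko mice for Nuf2 and 4 of 6 for Cenpe the level was below every PS2APP;Trem2wt mouse. Their log2 fold changes were -0.85 (SE 0.30, adjusted p = 0.177) and -0.70 (SE 0.26, adjusted p = 0.203) from edgeR. The other Ndc80-complex genes, Ndc80 and Spc25, had log2 fold changes of -0.42 and -0.54, the kinetochore scaffold Knl1 -0.46 and Cenpf, a large protein of the outer kinetochore, -0.45, none of them called. The shugoshins Sgo1 and Sgo2a, which guard the cohesion between sister chromatids, were at -0.10 (SE 0.41) and -0.03 (SE 0.33). Sgo2a shares 34.0% of its words with other genes, most often Kctd18. Of the 9 genes of this group 1 was called lower (1.53% of all genes tested) and 5 were lower at an unadjusted p of 0.05 or less (7.56% of all genes). The median log2 fold change was -0.46.

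None of the 5 spindle checkpoint and exit genes passed the test over all genes, and their median log2 fold change was -0.52. Cdca3, which helps to bring on mitotic entry, was at 0.744 to 1.66 nRPKM (median 1.14) in PS2APP;Trem2wt and 0.221 to 0.923 (median 0.674) in PS2APP;Trem2ko mice. All 6 PS2APP;Trem2ko mice were below the PS2APP;Trem2wt median and 3 were below the whole PS2APP;Trem2wt range. By edgeR its log2 fold change came to -0.90 (SE 0.32, adjusted p = 0.177). The checkpoint kinases Bub1, Bub1b and Ttk had log2 fold changes of -0.81, -0.52 and -0.44, with SEs between 0.36 and 0.48. Cdc20, which the checkpoint holds back until chromosomes are attached, was at -0.28 (SE 0.27). Of its words, 10.6% occur in other genes, most often Gm7856.

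Of the 4 subunits of the chromosomal passenger complex, which corrects faulty attachments and then moves to the midzone, none was called. Aurkb, its kinase, was at 0.969 to 2.13 nRPKM (median 1.33) against 0.384 to 1.39 (median 0.905), with PS2APP;Trem2ko 5 and 6 the lowest of all mice and 4 of 6 below every PS2APP;Trem2wt mouse. Birc5, or survivin, was at 0.412 to 1.03 nRPKM (median 0.644) against 0.236 to 0.880 (median 0.491). Incenp, the scaffold, was at 2.09 to 4.08 nRPKM (median 3.06) against 2.18 to 3.46 (median 3.01), and the genotypes overlapped throughout. The log2 fold changes from edgeR were -0.84 (SE 0.30, adjusted p = 0.190) for Aurkb, -0.37 (SE 0.28, adjusted p = 0.594) for Birc5 and -0.04 (SE 0.16, adjusted p = 0.951) for Incenp. The sign for Incenp was positive in females alone (0.06) and without any 1 of PS2APP;Trem2ko 2 or 5 or PS2APP;Trem2wt 3 or 4. Cdca8, the subunit borealin, was at -0.46 (SE 0.35).

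Among the 10 genes of spindle assembly and spindle motors, Aspm, a protein of the spindle poles whose human counterpart is mutated in microcephaly, was lower. Aspm (ENSMUSG00000033952, chr1:139454772-139494091) had a lowest, median and highest nRPKM of 0.113, 0.178 and 0.235 in PS2APP;Trem2wt mice and of 0.0237, 0.0667 and 0.123 in PS2APP;Trem2ko mice, from 14 to 130 counts per mouse in the latter. Only PS2APP;Trem2ko 2 reached into the PS2APP;Trem2wt range. By edgeR the log2 fold change came to -1.34 (SE 0.32, adjusted p = 0.0390), and the call was kept without PS2APP;Trem2ko 2 or PS2APP;Trem2wt 6 and lost without any 1 of the other 11 mice, with an adjusted p of at most 0.0911. It was also lost with sex as a covariate (0.0527), with no filter (0.0583), with limma on log2(nRPKM + 1) (0.0584) and in females alone (0.120).

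Tpx2, which activates the kinase Aurora A on the spindle, was at the edge of the threshold. Tpx2 (ENSMUSG00000027469, chr2:152847964-152895321) was at 0.675 to 1.12 nRPKM (median 0.898) in PS2APP;Trem2wt and 0.361 to 0.801 (median 0.461) in PS2APP;Trem2ko mice. Again only PS2APP;Trem2ko 2 reached into the PS2APP;Trem2wt range. The log2 fold change was -0.77 (SE 0.19), with an adjusted p of 0.0508 from edgeR, 0.0351 from voom+limma and 0.00434 from DESeq2.

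Nusap1, which bundles microtubules near chromosomes, was at 0.323 to 0.854 nRPKM (median 0.565) against 0.182 to 0.412 (median 0.337). Kif2c, a kinesin that takes microtubule ends apart, was at 0.668 to 1.27 (median 0.845) against 0.466 to 0.786 (median 0.672). Ckap2l, a spindle protein, was at 1.28 to 2.30 (median 1.62) against 0.727 to 1.72 (median 1.22). In each of these, 3 of 6 PS2APP;Trem2ko mice lay under the PS2APP;Trem2wt range and the rest overlapped it. The log2 fold changes from edgeR were -0.78 (SE 0.25, adjusted p = 0.131), -0.49 (SE 0.19, adjusted p = 0.216) and -0.49 (SE 0.19, adjusted p = 0.236), and DESeq2 called Nusap1 (adjusted p = 0.0449).

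The group also held 2 motors with values far from each other. Kif4, a kinesin on chromosome arms, was at 0.0469 to 0.558 nRPKM (median 0.244) against 0.0254 to 0.289 (median 0.113), with as few as 9 counts in a mouse of either genotype. Kif15, which can stand in for Kif11 in pushing the poles apart, was at 0.167 to 0.418 nRPKM (median 0.339) against 0.261 to 0.466 (median 0.349), and was the 1 gene of the 45 with a positive fold change. The values from edgeR were -1.05 (SE 0.49, adjusted p = 0.334) for Kif4 and 0.11 (SE 0.22, adjusted p = 0.877) for Kif15, which turned to -0.01 in counts thinned to the smallest library. Of the words of Kif4, 14.5% occur in other genes, most often Pdzd11. Kif11, the main motor of pole separation, was at -0.59 (SE 0.31), Hmmr, a spindle assembly factor, at -0.58 (SE 0.27) and Aurka, the kinase Aurora A, at -0.46 (SE 0.22), all uncalled. The median over the 10 genes was -0.58, and 7 were lower at an unadjusted p of 0.05 or less (7.56% of all genes tested).

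At the midzone, Gas2l3, which links actin to microtubules at the midbody of dividing cells, was the gene of the 45 with the largest fold change and the smallest adjusted p. Gas2l3 (ENSMUSG00000074802, chr10:89408823-89443967) had a lowest, median and highest nRPKM of 1.59, 2.35 and 3.83 in PS2APP;Trem2wt (mean 2.52 ± 0.708, SD, n = 7) and of 0.643, 0.955 and 1.19 in PS2APP;Trem2ko mice (mean 0.919 ± 0.185, SD, n = 6). The genotypes were well separated, and the PS2APP;Trem2ko mice lay close together, including PS2APP;Trem2ko 1 and 2, which overlapped the PS2APP;Trem2wt mice in most other genes. By edgeR the log2 fold change came to -1.46 (SE 0.18, adjusted p = 0.000352), or 36.4% of the PS2APP;Trem2wt level, and the adjusted p was at most 0.00153 with any 1 mouse left out.

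The other 9 midzone and cytokinesis genes had log2 fold changes between -0.75 and -0.19 and none passed the test. Prc1, which bundles the midzone microtubules, was at -0.75 (SE 0.39) and shares 9.77% of its words with other genes, most often Rccd1. The centralspindlin pair Kif23 and Racgap1 were at -0.74 (SE 0.29) and -0.38 (SE 0.21), and Ect2, the exchange factor that they bring to the furrow, at -0.34 (SE 0.23). The ring scaffold Anln was at -0.55 (SE 0.28), the abscission factor Cep55 at -0.53 (SE 0.32), and citron kinase, Cit, at -0.19 (SE 0.26). The kinesins Kif20b and Kif20a were at -0.61 (SE 0.32) and -0.40 (SE 0.32), the second sharing 25.2% of its words with other genes, most often Cdc23. Kif20b was called only without PS2APP;Trem2ko 2, in which it was higher than in any other mouse. The median over all 10 genes was -0.54.

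The 2 genes used most often to mark dividing cells in sections and single-cell data were not called. Top2a, the topoisomerase that untangles sister chromatids, was at 0.954 to 2.26 nRPKM (median 1.59) against 0.437 to 1.51 (median 0.905), with every PS2APP;Trem2ko mouse below the PS2APP;Trem2wt median and 3 below the whole range. Mki67, the antigen Ki-67 on the surface of mitotic chromosomes, was at 0.325 to 0.754 nRPKM (median 0.529) against 0.188 to 0.909 (median 0.409), with 2 PS2APP;Trem2ko mice under the PS2APP;Trem2wt range and PS2APP;Trem2ko 1 above it. The log2 fold changes from edgeR were -0.78 (SE 0.28, adjusted p = 0.193) for Top2a and -0.18 (SE 0.29, adjusted p = 0.825) for Mki67.

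**Figure D3:**
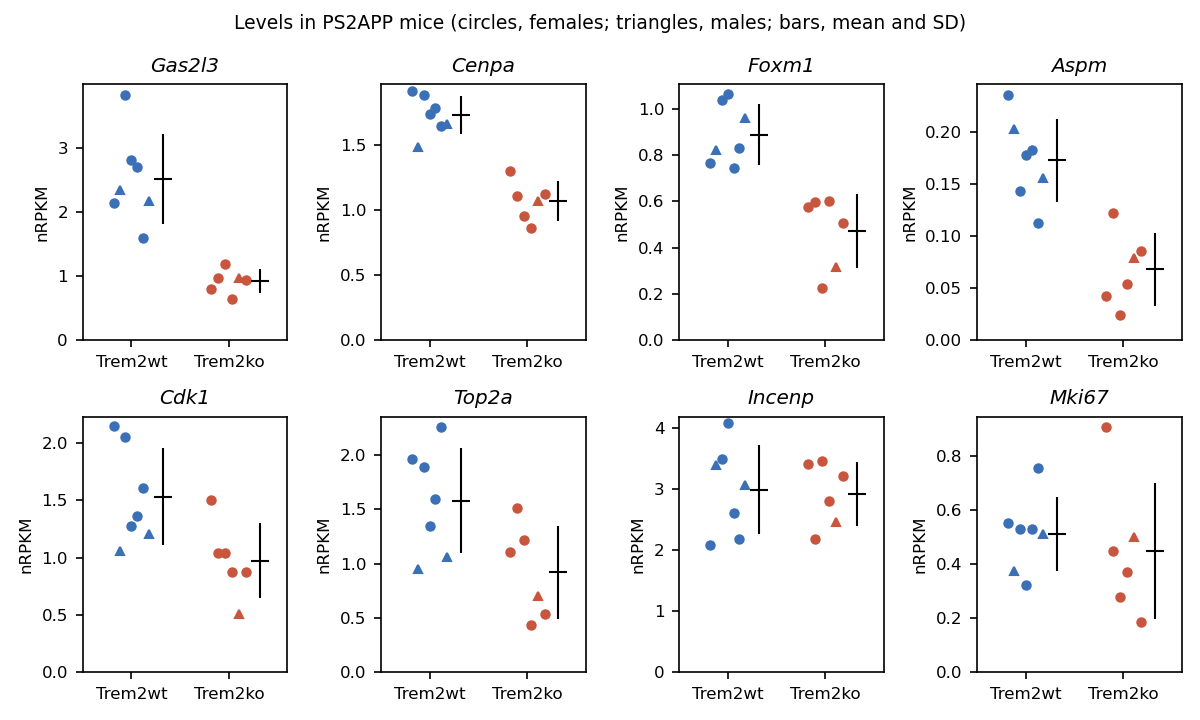
Abundance in nRPKM of 8 mitotic genes in each PS2APP;Trem2wt (n = 7, blue) and PS2APP;Trem2ko (n = 6, red) mouse, with circles for females, triangles for males and bars for the mean and SD. Gas2l3, Cenpa and Foxm1 do not overlap between genotypes, Aspm overlaps in 1 mouse, Cdk1 and Top2a overlap in part, Incenp overlaps throughout, and Mki67 spreads beyond the PS2APP;Trem2wt range on both sides in PS2APP;Trem2ko mice.

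The 45 genes were then viewed mouse by mouse, with a score that averages, over the genes, log2(nRPKM) relative to that gene's average in all 13 mice. Scores of PS2APP;Trem2wt mice 1 to 7 were 0.59, -0.04, 0.68, 0.18, 0.31, 0.20 and 0.14 (mean 0.29 ± 0.26, SD). Those of PS2APP;Trem2ko mice 1 to 6 were 0.00, 0.20, -0.33, -1.08, -0.46 and -0.39 (mean -0.34 ± 0.44, SD). The difference of the means was -0.64 on the log2 scale. The scores of 4 of the 6 PS2APP;Trem2ko mice lay under the PS2APP;Trem2wt range, whereas PS2APP;Trem2ko 2 was above the PS2APP;Trem2wt median. No test was made of the score, because the genes were chosen with results of these mice known.

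Mouse PS2APP;Trem2ko 4 was below the PS2APP;Trem2wt median in all 45 genes, below every PS2APP;Trem2wt mouse in 35, and the lowest of the 13 mice in 23. Mice 1, 2, 3, 5 and 6 of that genotype lay under the PS2APP;Trem2wt range in 9, 6, 20, 21 and 23 genes. At the other end, PS2APP;Trem2wt 1 and 3 were each the highest of all mice in 14 genes. These counts per mouse were not made over all genes tested, so how far they are particular to the 45 genes is not known. Summed over the 45 genes, CPM were between 192 and 264 in PS2APP;Trem2wt and between 101 and 192 in PS2APP;Trem2ko mice. Without PS2APP;Trem2ko 4 the difference in score was -0.49, and it was between -0.75 and -0.57 with any 1 other mouse left out.

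**Figure D4:**
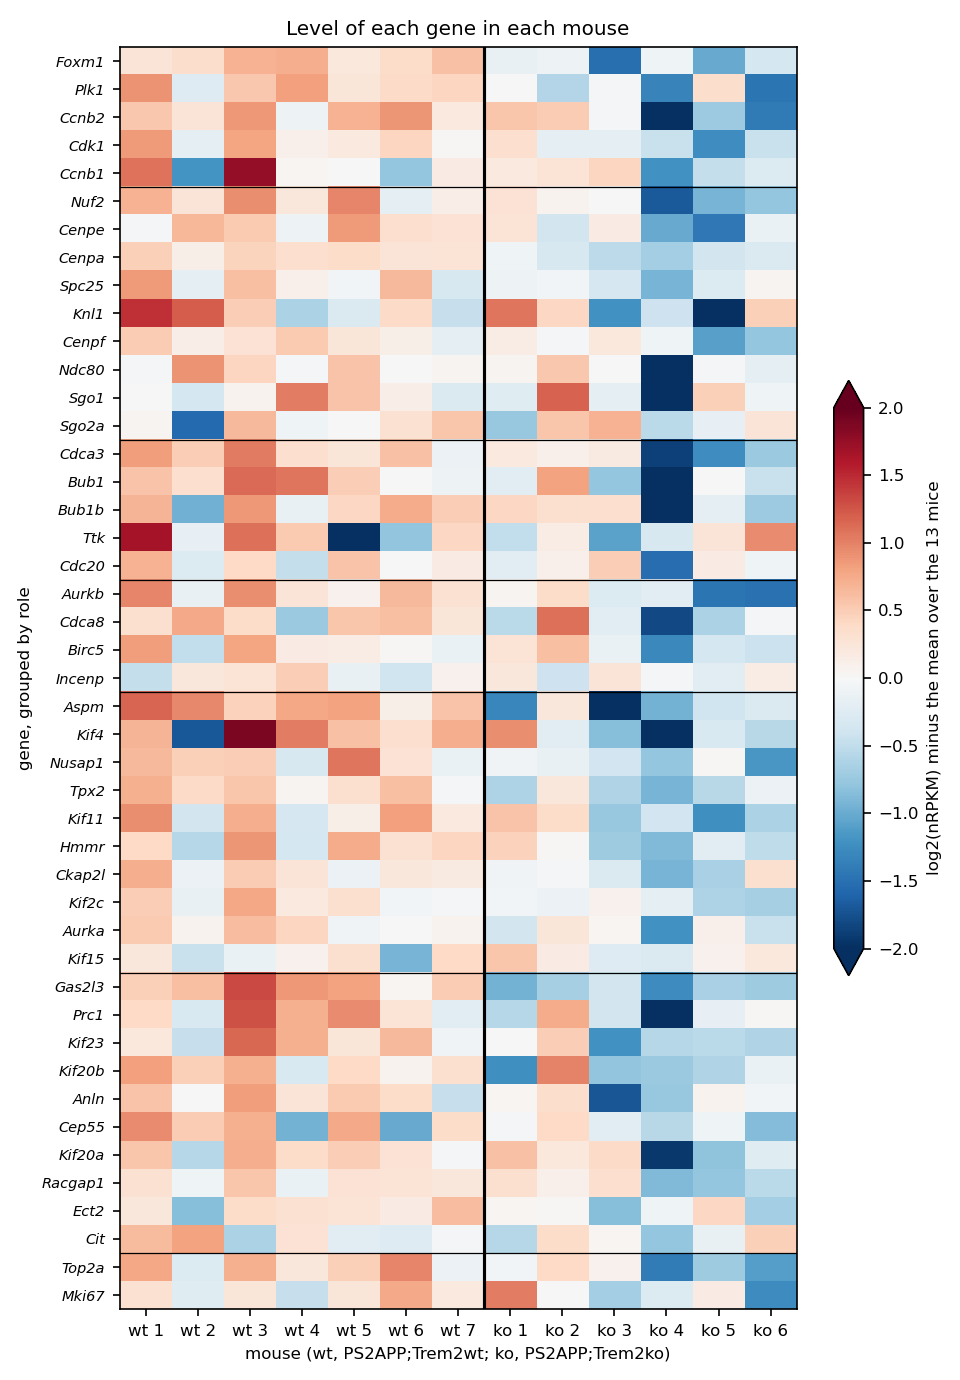
Level of each of the 45 genes in each mouse as log2(nRPKM) relative to that gene's average in all 13 mice, with genes grouped by role, red above and blue below the mean, and colours cut at 2 log2 units. Mouse PS2APP;Trem2ko 4 is blue in most rows, PS2APP;Trem2wt 3 is red in most, and the PS2APP;Trem2ko columns 1 and 2 are mixed.

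Scores were also set beside sex, depth and markers of other cells. The 3 males had scores of -0.04 and 0.14 (PS2APP;Trem2wt 2 and 7) and -0.46 (PS2APP;Trem2ko 5), and the difference was -0.71 in females alone. With counts thinned to the smallest library the median log2 fold change stayed at -0.55 and 4 genes were lower, Tpx2 taking the place of Foxm1. The share of all genes called lower in thinned counts was not taken. Neutrophil and precursor markers were highest in PS2APP;Trem2wt 2 (376 CPM), which had the lowest score of its genotype, and lowest in PS2APP;Trem2ko 6 (0.137 CPM), whose score was -0.39. The part of such cells in the score was not tested.

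**Figure D5:**
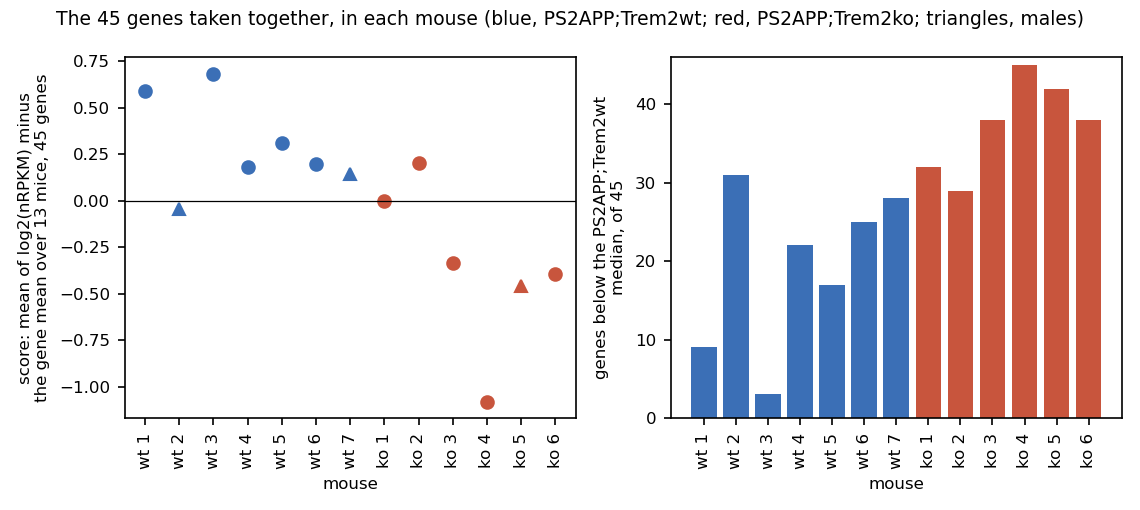
Left, score of the 45 genes in each mouse (mean of log2(nRPKM) relative to each gene's average); right, number of the 45 genes below the PS2APP;Trem2wt median. PS2APP;Trem2ko 4 has the lowest score (-1.08) and all 45 genes below that median, and PS2APP;Trem2ko 1 and 2 have scores within the PS2APP;Trem2wt range.

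Further genes of cell division were read in the same fit. Of 74 further genes of dividing cells (condensins, inner kinetochore subunits, further kinesins and regulators of mitosis), 70 were tested. A negative log2 fold change was found for 52 (74.3%, against 49.3% over all genes tested), and the median was -0.18, with single values from -1.45 to 0.59. None of them passed the edgeR threshold as lower (1.53% of all genes tested), and 2 were lower by DESeq2 (3.08% of all genes). At an unadjusted p of 0.05 or less by edgeR, 12 were negative (17.1%, against 7.56% of all genes) and 2 positive (7.29% of all genes). Cdc25b, a phosphatase that switches Cdk1 on, was higher, at 1.36 to 2.23 nRPKM (median 1.90) in PS2APP;Trem2ko against 1.06 to 1.49 (median 1.25) in PS2APP;Trem2wt mice. All 6 PS2APP;Trem2ko mice were above the PS2APP;Trem2wt median. By edgeR the log2 fold change came to 0.59 (SE 0.13, adjusted p = 0.0260), and the call was lost without PS2APP;Trem2wt 2 or 6 or PS2APP;Trem2ko 2, 5 or 6 (adjusted p of at most 0.0627), in females alone (0.139) and in thinned counts (0.0677). Pttg1, securin, was at 0.36 (SE 0.10, adjusted p = 0.0733), and Cenpn, a centromere protein, at -0.83 (SE 0.25, adjusted p = 0.118), both from edgeR.

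Parts of the division machinery that resting cells also make (γ-tubulin ring and augmin subunits, dynein and its partners, cohesin and the anaphase-promoting complex) were tested for 51 of 51 genes. Their median log2 fold change was 0.00, with 25 negative (49.0%, against 49.3% of all genes tested), and none was called in either direction by edgeR, voom+limma or DESeq2. Of all genes, edgeR called 1.53% lower and 0.503% higher, and voom+limma and DESeq2 called 1.9% and 3.08% lower. At such shares few calls are expected among 51 genes. At an unadjusted p of 0.05 or less by edgeR, 1 was negative (7.56% of all genes) and 1 positive (7.29%). Clasp2, which holds microtubule ends, was at -0.33 (SE 0.12, adjusted p = 0.199), Tubgcp5 of the γ-tubulin ring at 0.22 (SE 0.10, adjusted p = 0.304) and Haus3 of augmin at 0.18 (SE 0.09, adjusted p = 0.358), all from edgeR. The difference between these lists and the 45 genes was not tested.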

How the data were processed

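RNA-Seq of sorted cells from 13 mice was analysed. The authors prepared libraries with a SMART-seq v4 low-input kit, which does not mark strand, discarded low-quality and rRNA reads, and aligned single-end reads of 50 bases to GRCm38 with GSNAP. They deposited, per mouse and for 52636 genes, raw counts of uniquely aligned reads and nRPKM, an RPKM adjusted by a size factor. Gene lengths behind nRPKM and the counting tool are not given in the sources used here. Symbols and coordinates came from GENCODE M21 on GRCm38, and promoter windows from RefSeq.

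Counts were fitted with edgeR 4.0.16 in R 4.3.3 (filterByExpr, TMM, glmQLFit, glmQLFTest, no covariate), with Benjamini-Hochberg adjustment over 17086 genes. The SE is the log2 fold change divided by the square root of F, and the common biological coefficient of variation was 0.299. Scores used the deposited RPKM values, none of which was 0 for these genes. Total counts of 26120961 to 120569609 put 3 counts at 0.0249 to 0.115 CPM, for counting error only. Mice are numbered in listing order, which pairs nothing.

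Alternatives tried were DESeq2 1.42.0, limma 3.58.1 after voom, size factors by RLE, a model with sex, the 10 females alone, either no low-count filter or a minimum of 10 counts in 6 mice, limma on log2(nRPKM + 1) or log2(nRPKM + 0.1), and omission of each mouse. Counts thinned to the smallest library were added after the data were seen. Fits were first tested on simulated data. Values are given for called genes, the 15 with the smallest p, those with the largest positive fold change, the 3 with the highest and the lowest mean nRPKM and 8 usual markers of dividing cells, and from the other lists for called genes and the 3 with the smallest p. Members and lists were chosen with earlier results of these data known. Scripts used Python 3.11.15.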

Additional observations from a re-analysis of the deposited data

Results flagged for a closer look

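In 5 of the 92 groups tested (the 45 genes and their score in each genotype), 1 mouse lay farther from its group than Dixon's 95% critical value allows on log2(nRPKM + 0.1), and chance alone gives about 1 in 20. Mouse PS2APP;Trem2ko 4 was low for Ndc80, at 0.134 nRPKM against 0.569 to 0.937 in the other PS2APP;Trem2ko mice, and for Cdc20, at 0.566 against 1.40 to 2.27 nRPKM. Mouse PS2APP;Trem2wt 2 was low for Sgo2a, at 0.0630 nRPKM against 0.175 to 0.292 in the other PS2APP;Trem2wt mice, and for Ect2, at 0.403 against 0.818 to 1.12 nRPKM. Mouse PS2APP;Trem2wt 4 was low for Cdca8, at 0.642 against 1.28 to 1.81 nRPKM.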

How the results depend on the processing

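The count of lower genes among the 45 was 1 (Gas2l3) with no filter, 2 in females alone, 4 to 6 under the other settings and 2 to 6 with 1 mouse left out. The count past both cutoffs, 2 as reported, was 3 with voom+limma and 0 with limma on log2(nRPKM + 1). It was 1 with no filter, with sex as a covariate, in females alone and with limma on log2(nRPKM + 0.1), and 1 to 3 with 1 mouse left out. The share of all genes past both cutoffs was taken for the main fit only. Genes without overlap numbered 6 in females alone (2.44% of all genes, against 1.22% in all mice) and 3 to 5 with 1 mouse left out (1.31% to 1.63%). Of the other dividing-cell genes 2 were lower by DESeq2 (3.08% of all genes) and 1 with limma on either log2 scale and in females alone (1.03% of all genes in females alone). The count was 0 to 1 with 1 mouse left out. Of the same genes 2 were higher by DESeq2 and 0 in females alone (0 to 1 with 1 mouse left out). The shares of all genes called higher in these fits were not taken, so these counts cannot be set against them. The median log2 fold change of the 45 was between -0.61 and -0.20, the latter with a pseudocount of 1, and between -0.68 and -0.47 with 1 mouse left out, and the difference in score was between -0.71 and -0.42, and between -0.75 and -0.49 with 1 mouse left out. Over 644 alternative fits of the 28 genes given values by rule, 589 kept direction and side of the threshold, 35 lost and 14 gained a call, and 6 changed sign: Incenp (0.0553 in females alone and -0.11 to 0.0528 with 1 mouse left out) and Kif15 (-0.0111 in thinned counts). The cause of these changes was not tested. No paired analysis was possible because the labels do not say which mice were handled as a pair. Ccnb1 and Kif4 had as few as 6 and 9 counts in a mouse.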
